A study of Mus musculus with 12 samples.

Results

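A set of 9 genes that maintain pluripotency or reprogram somatic cells was followed across 12 mouse brain samples. They were taken by name from the 55862 genes of the expression table. They are Pou5f1 (also called Oct4), Nanog, Klf2, Klf4, Klf5, Myc, Mycn, Lin28a and Lin28b. RNA from 3 samples in each of 4 groups was sequenced to ask whether astrocytes kept as spheres take on stem cell features. ASTs, the negative control at day 0, were primary astrocytes from the cerebral cortex of newborn C57BL/6 mice, grown in serum. A-iSCs were such astrocytes after 5 days as spheres on agarose, with no transgene. P56-NPCs and P0-NPCs, the positive controls, were fresh cell suspensions, made from the adult subependymal zone (postnatal day 56) and the newborn hippocampus (postnatal day 0). Their donors were C57BL/6 by the labels and C57BL/6J by the methods of the study. No sorting step was described for any group, so each sample may be a mixture of cells. By staining (positive for GFAP, negative for Sox2, Sox10, Tuj1 and Map2), the study judged its starting astrocytes pure. In bulk RNA, fewer expressing cells and less RNA per cell cannot be told apart. The study speaks in general of independent experiments, and no source ties each sequenced sample to its own animal or culture, so the p-values measure the spread between these samples, which may be technical.

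Pou5f1, Nanog and their partner Sox2 bind DNA together and hold embryonic stem cells in the undifferentiated state. Klf2, Klf4 and Klf5 are zinc finger factors that support the same network, and Klf4 and Myc, with Pou5f1 and Sox2, are the classical factors that turn somatic cells into induced pluripotent stem cells. Myc and Mycn are related drivers of growth and proliferation, and Mycn is prominent in neural progenitors of the developing brain. Lin28a and Lin28b are RNA binding proteins that block the maturation of the let-7 microRNAs and are typical of early embryonic and fetal cells.

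The factors fell into 2 sets. Klf2, Klf4, Klf5, Myc and Mycn reached a mean of 1 FPKM (fragments scaled to the length of the gene and to a size set for each library) in at least 1 group, whereas Pou5f1, Nanog, Lin28a and Lin28b, 4 of the 9, never did. A-iSCs held less Klf2 and Klf4 and more Mycn than ASTs, while their Pou5f1 was listed at 0 in all 3 libraries. P0-NPCs stood out by Mycn and Lin28b, and P56-NPCs by low Myc and by the most Nanog of the 4 groups, at under 1 FPKM.

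Between 17077780 and 24452419 fragments per library lay on genes. For a gene of 1 kilobase, the floor of 3 fragments, which a library had to exceed to be read as detecting a gene, equals 0.103 to 0.187 FPKM. Floors and counting intervals cover counting error only. The library size that the deposited FPKM imply was not this fragment total but 0.941 to 0.985 times it in ASTs, 1.10 to 1.15 in A-iSCs, 0.744 to 0.779 in P56-NPCs and 1.15 to 1.22 in P0-NPCs, so the values carry a further scaling, and dividing by the fragment total is tried below as library size alone. No 2 libraries of a group were alike within sampling noise, and by their counts AST replicate 2 and A-iSC replicate 3 were least like the other replicates. The 8 astrocyte markers, among them Gfap and Aqp4, summed to 143 to 161 FPKM in ASTs, 1211 to 2466 in A-iSCs, 2834 to 3072 in P56-NPCs and 238 to 303 in P0-NPCs, so the lowest sums were those of the ASTs. Taken singly, 4 of 8 were higher and 4 lower in P0-NPCs than in ASTs in the main test given below, where 79.0% of all genes differed. Microglial markers summed to 2468 to 3416 FPKM in A-iSCs against 240.5 to 282 in ASTs, and oligodendrocyte markers to 10825 to 12337 FPKM in P56-NPCs. Markers of neuroblasts and intermediate progenitors summed to 521 to 673 FPKM in P0-NPCs and to 16.1 to 19.1 in A-iSCs. In P56-NPCs 17.1 ± 0.548% (SD, n = 3) of the fragments came from mitochondrial genes, against 2.94 to 7.03% in the other samples.

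Pou5f1 and Nanog were measured here with RNA-seq. The study also measured them by RT-PCR and Western blot, and Oct4 by immunostaining, and reported both higher in spheres than in monolayer astrocytes. RNA-seq does not measure protein. The RT-PCR primers that the study lists show which bases of each transcript its PCR read. The primers follow from 5′ to 3′ in lower case.
Pou5f1 forward: cgaccgccccaatgc
Pou5f1 reverse: tgggactcctcgggagttg
Nanog forward: aggcctggaccgctcagt
Nanog reverse: agttatggagcggagcagcat
By exact match to GENCODE M21 transcripts (GRCm38), the Pou5f1 pair bounds 57 bases of the coding sequence across exons 1 and 2 of transcript Pou5f1-201, plus strand, chr17:35506432-35509107, and matched no other transcript. The Nanog pair bounds 60 coding bases at chr6:122713329-122713388, plus strand, within a single exon shared by all 3 Nanog transcripts. The forward Nanog primer alone also matched the pseudogene Nanog-ps1 on chromosome X.

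Pou5f1 (chromosome 17, 35506018 to 35510772, plus strand, GRCm38) was listed at 0 in all 3 ASTs, all 3 A-iSCs and all 3 P56-NPCs. Its only fragments were in the P0-NPCs, which held 0, 1 and 2. No library therefore passed the floor of 3 fragments, which lay between 0.0458 and 0.0831 FPKM for this gene. Over the 3 A-iSC libraries together, a count of 0 has an exact 95% upper limit of 0.0232 FPKM, and over the ASTs the limit is 0.0295 FPKM. No difference in Pou5f1 was detectable at this depth.

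A listed 0 is not in itself proof of absence in this table. Genes that every cell uses, such as Ranbp1 and Trmt2a, picked once their values were known, were also listed at 0 in 11 and 12 of the 12 libraries. Of the 2248 exonic bases of Pou5f1, 317 were shared with Gm19553 on the opposite strand and 1931 were its own. Tcf19, the next protein-coding gene 1961 bases away, was counted at 1.57 to 19.7 FPKM.

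Nanog (chromosome 6, 122707489 to 122714633, plus strand) was counted in every library, with few fragments. ASTs held 13, 13 and 6 fragments, A-iSCs 4, 6 and 9, P56-NPCs 23, 22 and 24, and P0-NPCs 7, 3 and 7. In FPKM these were 0.346, 0.286 and 0.144 in ASTs, 0.0885, 0.113 and 0.150 in A-iSCs, 0.591, 0.611 and 0.650 in P56-NPCs, and 0.136, 0.0460 and 0.113 in P0-NPCs. The P56-NPC values lay above those of all other samples, and the A-iSC values overlapped with both the ASTs and the P0-NPCs. Even in P56-NPCs, between 41.3 and 41.9% of protein-coding genes had lower values. The pseudogenes Nanog-ps1 and Nanog-ps2 were listed at 0 in every library.

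Because Nanog and Lin28b lay below the filter of the main test, their fragments were compared with limma-voom, a test for counts, over all genes with at least 10 fragments in the 6 samples compared, a setting added once the values were known. Nanog in P56-NPCs exceeded that in ASTs (log2 fold change 1.31 ± 0.37, adjusted p = 0.00997 by limma-voom, ± SE) and that in P0-NPCs (2.72 ± 0.45, adjusted p = 0.000283), and A-iSCs lay below P56-NPCs (-2.32 ± 0.39, adjusted p = 0.00112). P0-NPCs lay below ASTs (-1.399 ± 0.54, adjusted p = 0.038). No difference was called between A-iSCs and ASTs (-1.01, 95% interval -2.17 to 0.15, adjusted p = 0.138), although the pooled fragments gave a ratio of 0.467 (exact 95% counting interval 0.25 to 0.849), nor between A-iSCs and P0-NPCs (0.38, 95% interval -0.89 to 1.66, adjusted p = 0.595). The oligodendrocyte markers and the mitochondrial share were likewise highest in P56-NPCs, and their part in the Nanog result was not tested. The same test called 45.5% of all genes between A-iSCs and ASTs, 69.9% between P56-NPCs and ASTs, 70.3% between P0-NPCs and ASTs, 50.3% between A-iSCs and P56-NPCs, 55.8% between A-iSCs and P0-NPCs, and 64.8% between P56-NPCs and P0-NPCs.

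The Nanog promoter is shown because it carries the joint octamer and Sox element through which Pou5f1 and Sox2 are known to act. RefSeq holds 2 start sites for Nanog, and the window of the first runs from 250 bases before to 50 after it on GRCm38.p6, plus strand, with the element in capitals.
Nanog promoter, chr6:122707239-122707538: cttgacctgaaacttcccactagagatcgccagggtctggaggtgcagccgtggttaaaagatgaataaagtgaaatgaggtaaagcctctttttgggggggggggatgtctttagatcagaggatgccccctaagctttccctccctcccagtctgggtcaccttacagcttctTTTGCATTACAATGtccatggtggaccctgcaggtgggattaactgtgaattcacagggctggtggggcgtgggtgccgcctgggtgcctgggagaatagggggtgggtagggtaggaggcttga
The element was searched on both strands as TTTGCAT, any base, then ACAATG. It occurred in 2 of 32851 promoter windows of this length, both of them the overlapping windows of Nanog. A match of letters describes the sequence only.

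**Figure D1:**
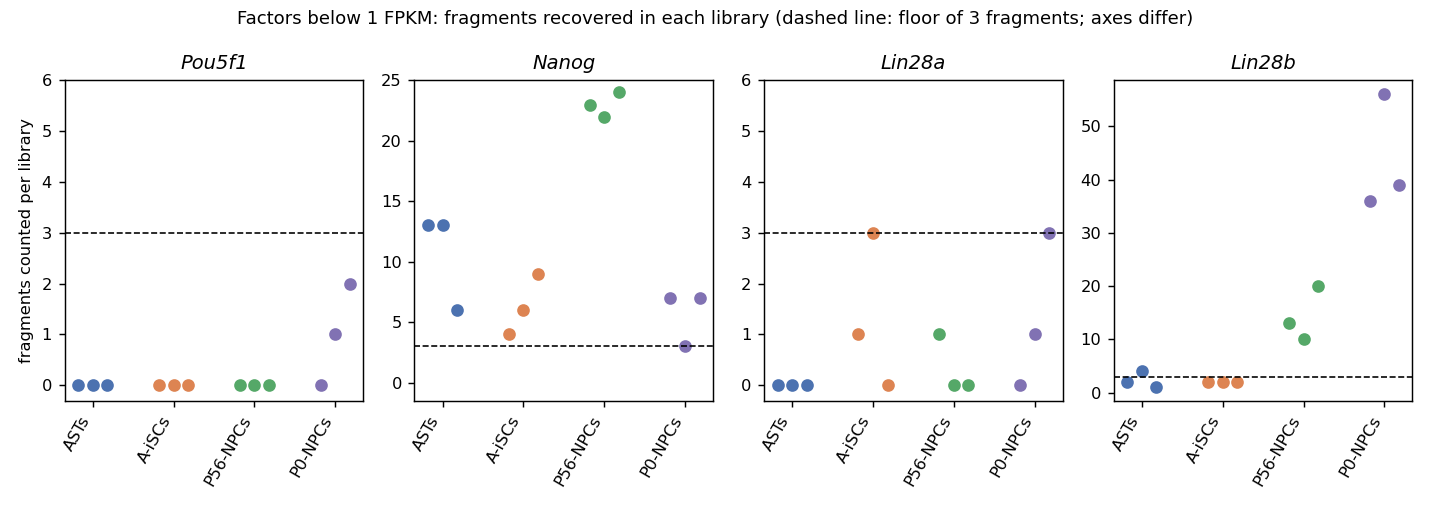
Fragments recovered for Pou5f1, Nanog, Lin28a and Lin28b in each library (y axis, fragments; x axis, group; a point is a library, with replicates 1 to 3 from left to right; dashed line, floor of 3 fragments; the y axes differ). Nanog was highest in the 3 P56-NPC libraries at 22 to 24 fragments, Lin28b in the 3 P0-NPC libraries at 36 to 56, and Pou5f1 never passed the floor.

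Of the Lin28 paralogs, Lin28a (chromosome 4, 134003330 to 134018841, minus strand) was near 0 in every sample. ASTs were listed at 0 in all 3 libraries, A-iSCs held 1, 3 and 0 fragments, P56-NPCs 1, 0 and 0, and P0-NPCs 0, 1 and 3. No library exceeded 3 fragments, so no fold change is given. The pooled level in A-iSCs was 0.0142 FPKM, with an exact 95% counting interval of 0.00386 to 0.0362, and the count of 0 over the 3 ASTs has an exact 95% upper limit of 0.0166 FPKM, above the A-iSC level. Of its 3996 exonic bases, 234 were shared with Gm13061 on the opposite strand.

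Lin28b (chromosome 10, 45376620 to 45486395, minus strand) was the paralog with fragments. ASTs held 2, 4 and 1 fragments and A-iSCs 2, 2 and 2, and AST replicate 2 alone among them passed the floor. P56-NPCs held 13, 10 and 20 fragments and P0-NPCs 36, 56 and 39, which correspond to 0.0826, 0.0687 and 0.134 FPKM and to 0.174, 0.212 and 0.156 FPKM. Every dissociated sample lay above every cultured sample, and the P0-NPCs lay above the P56-NPCs without overlap.

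Compared with ASTs, Lin28b was higher in P56-NPCs (log2 fold change 2.62 ± 0.56, adjusted p = 0.00222 by limma-voom, ± SE) and in P0-NPCs (3.56 ± 0.49, adjusted p = 7.14e-05). A-iSCs lay below P56-NPCs (-3.02 ± 0.55, adjusted p = 0.00182) and below P0-NPCs (-3.96 ± 0.50, adjusted p = 8.38e-05). P56-NPCs lay below P0-NPCs (-0.94 ± 0.33, adjusted p = 0.0278). No difference between A-iSCs and ASTs was called (-0.40, 95% interval -1.93 to 1.13, adjusted p = 0.661). By pooled fragments the ratio of P0-NPCs to ASTs was 13.1 (exact 95% counting interval 6.18 to 33.2). Even in P0-NPCs, only 34.1 to 35.4% of protein-coding genes lay below Lin28b. The summed FPKM of the 8 neuron markers was highest in P0-NPCs, at 774 to 945, and next in P56-NPCs, at 220 to 265. It was 88.2 to 124 in ASTs and 48.6 to 66.0 in A-iSCs. Marker by marker, the main test called 4 of 8 higher in P56-NPCs than in P0-NPCs and 3 lower. It called 78.8% of all genes there. The neuroblast markers were also highest in P0-NPCs, but in P56-NPCs summed to only 19.8 to 22.6 FPKM. The part of either cell type in the result was not tested.

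Lin28 proteins act on let-7, and let-7 in turn pairs with sites in the Lin28 transcripts, so the pairing sequences are shown. Mature let-7a of Mirlet7a-1 (chr13:48538239-48538260, minus strand, RefSeq, GRCm38.p6) has its seed, bases 2 to 8, in capitals.
let-7a: uGAGGUAGuagguuguauaguu
In the 3′ UTRs of GENCODE M21, the complement of the seed, CTACCTC, occurred 4 times in Lin28b, 2 times in Lin28a, 4 times in the let-7 target Hmga2, and not in the other 7 factors. It occurred at least once in 9.02% and at least 3 times in 0.152% of 21045 genes. The Lin28a and Lin28b sites and the first Hmga2 site are given as DNA of the transcript strand (minus), with the seed match in capitals.
Lin28b, chr10:45381022-45381044: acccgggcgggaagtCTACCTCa
Lin28b, chr10:45378648-45378670: tatacttgttagtaaCTACCTCt
Lin28b, chr10:45378476-45378498: gtttacagcacatggCTACCTCc
Lin28b, chr10:45377060-45377082: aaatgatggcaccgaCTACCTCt
Lin28a, chr4:134005189-134005211: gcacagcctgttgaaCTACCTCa
Lin28a, chr4:134004551-134004573: gagatcgccacaaacCTACCTCa
Hmga2, chr10:120364224-120364246: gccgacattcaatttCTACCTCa

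Among 12 further genes of the Lin28 and let-7 axis, the embryonic chromatin proteins Hmga2 and Hmga1 were highest in ASTs. Hmga2 was 17.2 ± 1.43 FPKM (SD, n = 3) in ASTs but 0.859 ± 0.272 in A-iSCs, and P0-NPCs held 0.0739 ± 0.0371. In A-iSCs Hmga2 fell by 3.297 ± 0.14 (adjusted p = 5.56e-06) on the log2 scale and Hmga1 by 1.69 ± 0.15 (adjusted p = 8.57e-05). The let-7b host transcript, listed as Lncppara, was 7.57 ± 0.632 FPKM in P0-NPCs and 0.925 ± 0.342 in ASTs, a difference of 2.17 ± 0.14 (adjusted p = 3.47e-06). Hmga2 and Lncppara passed the filter in these comparisons only through the group where they were high, which fixed their direction. The counts that follow, here and for the later lists, stand beside 54.8% of all genes called between A-iSCs and ASTs, 78.9% between P56-NPCs and ASTs, and 79.0% between P0-NPCs and ASTs. For A-iSCs the share was 61.0% against P56-NPCs and 65.1% against P0-NPCs. A gene that reached 1 FPKM in only 1 of the groups compared had its direction fixed by the filter, so such genes are counted apart and, in lists where they were many, no median is given. Against ASTs, A-iSCs held 1 of 9 higher and 3 lower, but the higher one and 1 of the lower were fixed in this way, and with library size alone there were 3 higher and 2 lower. P56-NPCs held 1 of 8 higher and 3 lower, 2 of the lower fixed, and with library size alone 1 higher and 5 lower. P0-NPCs, again against ASTs, held 7 of 11 higher and 3 lower, of which 4 and 1 were fixed. Set against P56-NPCs, A-iSCs held 3 of 8 higher, 2 of them fixed, and 1 lower, but with library size alone 7 higher and 0 lower, and set against P0-NPCs 2 of 10 higher and 6 lower, 2 of the lower fixed.

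**Figure D2:**
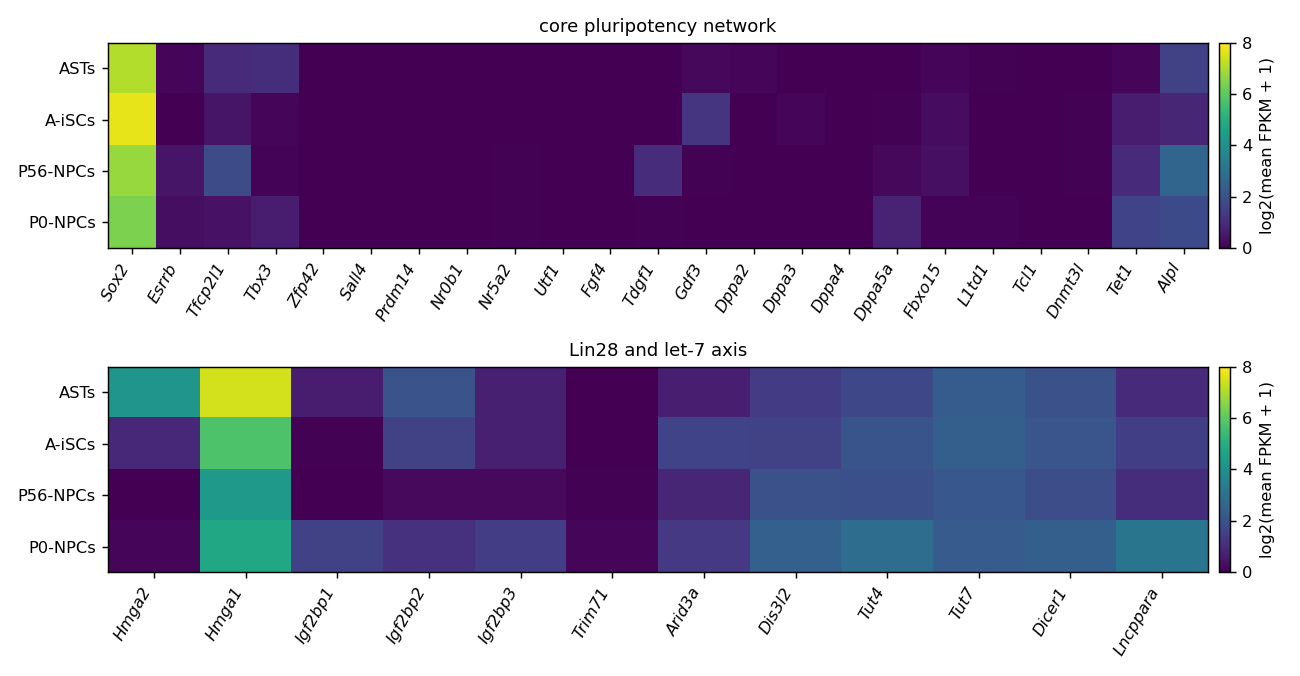
Mean level of each gene of 2 lists in the 4 groups (colour, log2 of the mean FPKM of 3 samples + 1; rows, groups; columns, genes reported here of the core pluripotency network above and of the Lin28 and let-7 axis below). Sox2 was the brightest gene of the core network in every group, and Hmga2 and Hmga1 were brightest in ASTs.

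Klf2 (chromosome 8, 72319033 to 72321656, plus strand) and Klf4 (chromosome 4, 55527143 to 55532466, minus strand) were the factors with the highest levels in ASTs. Both are early response genes in many cells, and Klf2 is also known from endothelium. Klf2 was 34.6, 49.3 and 32.2 FPKM in ASTs, 13.6, 11.2 and 5.01 in A-iSCs, 10.04, 7.22 and 11.2 in P56-NPCs, and 10.96, 5.93 and 10.2 in P0-NPCs. Klf4 was 30.7, 26.04 and 29.9 FPKM in ASTs, 6.297, 6.08 and 3.85 in A-iSCs, 6.59, 3.96 and 9.36 in P56-NPCs, and 6.04, 4.71 and 5.98 in P0-NPCs. For both genes every AST sample lay above all 9 other samples, and the other 3 groups overlapped with each other.

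Klf2 fell from ASTs to A-iSCs by 1.93 ± 0.34 (adjusted p = 0.00236) on the log2(FPKM + 1) scale (limma, ± SE), and its mean was 3.89-fold higher in ASTs. Klf4 fell by 2.24 ± 0.18 (adjusted p = 5.32e-05), with a mean 5.34-fold higher in ASTs. A-iSC replicate 3 held the lowest value of its group for both genes, and without it Klf2 fell by 1.55 (adjusted p = 0.000866) and Klf4 fell by 2.05 (adjusted p = 3.07e-05). Against ASTs, P56-NPCs differed by -1.92 ± 0.20 (adjusted p = 8.35e-05) in Klf2 and by -2.03 ± 0.25 (adjusted p = 0.000194) in Klf4, and P0-NPCs by -1.9998 ± 0.24 (adjusted p = 9.65e-05) and -2.19 ± 0.11 (adjusted p = 9.31e-07). These comparisons share the AST samples.

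Between A-iSCs and the NPC groups, and between the NPC groups, no difference in Klf2 or Klf4 was called. The differences in Klf2 were -0.01 (95% interval -0.80 to 0.77, adjusted p = 0.974) for A-iSCs minus P56-NPCs, 0.07 (95% interval -0.74 to 0.88, adjusted p = 0.873) for A-iSCs minus P0-NPCs and 0.08 (95% interval -0.45 to 0.62, adjusted p = 0.747) for P56-NPCs minus P0-NPCs. Those in Klf4 were, in the same order, -0.21 (95% interval -0.89 to 0.46, adjusted p = 0.541), -0.05 (95% interval -0.47 to 0.37, adjusted p = 0.809) and 0.16 (95% interval -0.41 to 0.73, adjusted p = 0.564). The sign of each of these 6 differences turned under at least 1 other scaling or on leaving out a library, and Klf4 between the NPC groups was called without P56-NPC replicate 2 (0.44, adjusted p = 0.04295).

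The 12 immediate early genes, such as Fos and Egr1, summed, in the order of the replicates, to 394, 427 and 397 FPKM in ASTs, 648, 513 and 350.3 in A-iSCs, 313, 275 and 331 in P56-NPCs, and 192, 105 and 161 in P0-NPCs. Within each group the sample with the highest sum was also the highest in Klf2, and outside the ASTs the lowest sum went with the lowest Klf2. Klf4 followed the sums in this way only outside the ASTs. AST replicate 2, with the highest sum of its group, held the lowest Klf4 of that group (26.04 FPKM). Of the 11 tested between A-iSCs and ASTs, 3 were higher and 2 lower in A-iSCs, and the part of these genes in the Klf2 and Klf4 results was not tested. The 12 endothelial markers were highest in P0-NPCs at 98.4 to 108 FPKM, against 10.3 to 11.5 in ASTs, where 4 to 5 of them reached 1 FPKM, and 3.28 to 4.79 in A-iSCs. All 6 that could be tested between A-iSCs and ASTs reached 1 FPKM in only 1 of these groups, so their count is not read, and the part of this cell type in the result was not tested. The summed FPKM of the 6 fibroblast and meningeal markers was highest in ASTs, at 156 to 209.8. It was 7.33 to 9.04 in A-iSCs, 10.7 to 15.1 in P56-NPCs and 121 to 133 in P0-NPCs. Taken singly, 4 of 6 were called higher in P0-NPCs than in ASTs, 2 of them fixed by the filter, and 1 lower. Over all genes 79.0% were called there. The part of these markers in the result was not tested. The 8 markers of cycling cells were also highest in ASTs, at 233 to 277 FPKM, against 78.1 to 85.7 in A-iSCs, 46.9 to 47.95 in P56-NPCs and 103 to 119.8 in P0-NPCs, and their part was not tested either.

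The promoters of Klf2 and Klf4 are shown because these genes moved together. Each window runs from 250 bases before to 50 after the RefSeq start (GRCm38.p6), Klf2 on the plus and Klf4 on the minus strand, and capitals mark GC boxes (GGGCGG or, on the other strand, CCGCCC).
Klf2 promoter, chr8:72318812-72319111: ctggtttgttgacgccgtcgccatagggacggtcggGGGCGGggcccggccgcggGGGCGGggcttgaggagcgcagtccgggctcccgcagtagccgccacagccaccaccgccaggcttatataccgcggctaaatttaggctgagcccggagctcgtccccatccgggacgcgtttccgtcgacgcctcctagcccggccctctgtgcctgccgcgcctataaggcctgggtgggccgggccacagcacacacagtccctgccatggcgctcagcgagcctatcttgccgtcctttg
Klf4 promoter, chr4:55532426-55532725: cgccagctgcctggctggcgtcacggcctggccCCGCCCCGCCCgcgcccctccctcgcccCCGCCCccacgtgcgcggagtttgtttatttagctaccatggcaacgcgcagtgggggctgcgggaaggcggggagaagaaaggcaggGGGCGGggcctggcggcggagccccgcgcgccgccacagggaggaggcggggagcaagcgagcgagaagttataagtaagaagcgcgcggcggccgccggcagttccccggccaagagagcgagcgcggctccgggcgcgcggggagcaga
The Klf4 window held 40 CpG dinucleotides and 4 GC boxes, some of them overlapping, and the Klf2 window 32 and 2. The median over 32851 promoters was 7 CpG dinucleotides, 96.1% of promoters had fewer than Klf4 and 90.5% fewer than Klf2, and 35.7% held a GC box. The E-box CACGTG, found in 7.15% of promoters, was in the Klf4 window and not in that of Klf2. The AP-1 letters TGANTCA, found in 7.81% of promoters, were in neither.

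Klf5 (chromosome 14, 99298691 to 99315036, plus strand) followed another order. It was 3.02, 3.09 and 2.899 FPKM in ASTs, 3.69, 3.49 and 4.11 in A-iSCs, 0.177, 0.1797 and 0.946 in P56-NPCs, and 0.529, 0.792 and 0.747 in P0-NPCs. All cultured samples lay above all dissociated samples, and P56-NPC replicate 3 lay well above the other P56-NPCs. A-iSCs exceeded P56-NPCs by 1.77 ± 0.21 (adjusted p = 0.000288) and P0-NPCs by 1.497 ± 0.12 (adjusted p = 2.04e-05) on the log2(FPKM + 1) scale, which compresses changes at such low levels. Its means were 8.67-fold and 5.46-fold higher in A-iSCs, and without P56-NPC replicate 3 the first of these was 21.1-fold. P56-NPCs differed from ASTs by -1.52 ± 0.20 (adjusted p = 0.000266) and P0-NPCs by -1.25 ± 0.10 (adjusted p = 8.44e-06). The gene passed the filter through the cultured groups alone, so it had to differ there. Between the NPC groups it lay below that filter, and limma-voom on fragments did not call it (-1.13, 95% interval -2.19 to -0.07, adjusted p = 0.0593). The A-iSC values lay above the AST values without overlap, but the difference was not called at 0.25 (95% interval 0.01 to 0.49, adjusted p = 0.07605), and was called when scaled by library size alone (0.42, adjusted p = 0.0128).

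**Figure D3:**
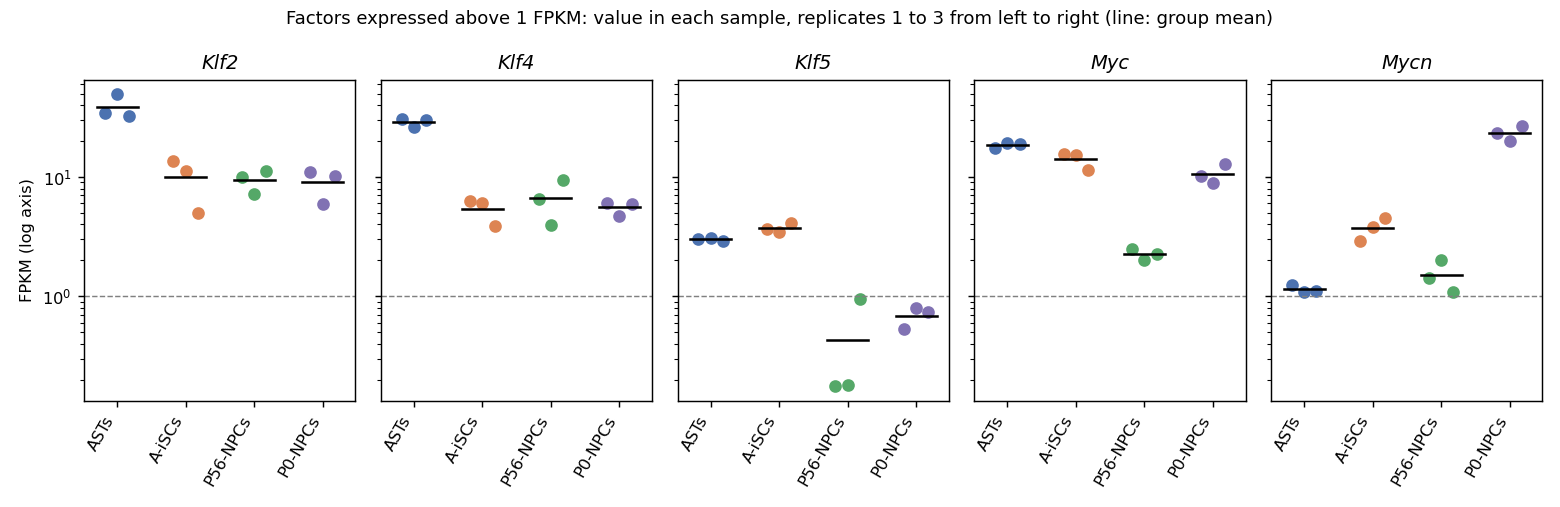
FPKM of Klf2, Klf4, Klf5, Myc and Mycn in each sample (y axis, FPKM on a log axis; x axis, group; a point is a sample, with replicates 1 to 3 from left to right; line, mean of 3 samples; dashed line, 1 FPKM). Klf2 and Klf4 were highest in ASTs, Klf5 in both cultured groups, Myc lowest in P56-NPCs and Mycn highest in P0-NPCs.

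Myc (chromosome 15, 61985391 to 61990374, plus strand) was lowest in P56-NPCs. It was 17.5, 19.2 and 18.8 FPKM in ASTs, 15.5, 15.3 and 11.4 in A-iSCs, 2.502, 2.02 and 2.26 in P56-NPCs, and 10.3, 8.900 and 12.9 in P0-NPCs. All P56-NPC samples lay below all others, all ASTs lay above all others, and A-iSCs overlapped with P0-NPCs. P56-NPCs differed from ASTs by -2.58 ± 0.08 (adjusted p = 2.01e-07) on the log2 scale, with a mean 8.19-fold higher in ASTs, and from P0-NPCs by -1.83 ± 0.13 (adjusted p = 7e-06). A-iSCs were above P56-NPCs by 2.200 ± 0.14 (adjusted p = 1.4e-05), and P0-NPCs differed from ASTs by -0.75 ± 0.13 (adjusted p = 0.000806). The part of the oligodendrocyte markers and of the mitochondrial share, both highest in P56-NPCs, was not tested for Myc either.

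Between A-iSCs and ASTs the difference in Myc was -0.38 (95% interval -0.71 to -0.05, adjusted p = 0.0526) and missed the threshold. It was called with upper-quartile scaling (-0.51, adjusted p = 0.0175), with all 4 groups in the model (adjusted p = 0.0301), over genes with a mean of at least 5 FPKM (adjusted p = 0.0494) and without A-iSC replicate 3 (-0.25, adjusted p = 0.0493). Between A-iSCs and P0-NPCs the difference was 0.37 (95% interval -0.02 to 0.76, adjusted p = 0.0888). It was called with all 4 groups in the model (adjusted p = 0.0317), without A-iSC replicate 3 (0.51, adjusted p = 0.0127) and without P0-NPC replicate 3 (0.50, adjusted p = 0.0473).

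Mycn (chromosome 12, 12936093 to 12941914, minus strand) was highest in P0-NPCs. It was 1.25, 1.09 and 1.11 FPKM in ASTs, 2.91, 3.804 and 4.54 in A-iSCs, 1.43, 2.004 and 1.09 in P56-NPCs, and 23.5, 20.1 and 26.8 in P0-NPCs. The P0-NPCs lay above all other samples and the A-iSCs above all ASTs and P56-NPCs, while the ASTs and the P56-NPCs overlapped. Mycn rose from ASTs to A-iSCs by 1.13 ± 0.15 (adjusted p = 0.000586) on the log2(FPKM + 1) scale, with means that differed 3.26-fold, and without A-iSC replicate 3, the highest of its group, by 1.01 (adjusted p = 0.000656).

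In P0-NPCs Mycn was above ASTs by 3.499 ± 0.11 (adjusted p = 9.9e-08), a 20.4-fold difference of means. A-iSCs minus P0-NPCs gave -2.37 ± 0.16 (adjusted p = 1.09e-05), A-iSCs minus P56-NPCs 0.92 ± 0.18 (adjusted p = 0.00369), and P56-NPCs minus P0-NPCs -3.29 ± 0.15 (adjusted p = 8.38e-07). P56-NPCs and ASTs differed by 0.21 (95% interval -0.12 to 0.53, adjusted p = 0.204), which was called without P56-NPC replicate 3 (0.33, adjusted p = 0.0397). Mycn, the neuroblast markers and the summed neuron markers were highest in P0-NPCs. Of the single neuron markers, 4 of 8 were called higher in P56-NPCs than in P0-NPCs and 3 lower. The part of those cells was not tested.

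Per length of gene, the balance of the paralogs differed between the groups. Mycn made up 5.39 to 6.65% of the sum of Myc and Mycn FPKM in ASTs, 15.8 to 28.5% in A-iSCs, 32.5 to 49.8% in P56-NPCs and 67.5 to 69.6% in P0-NPCs. These shares did not overlap between any groups. The sum itself was 19.6 ± 0.764 FPKM (SD, n = 3) in ASTs, 17.8 ± 1.67 in A-iSCs, 3.77 ± 0.369 in P56-NPCs and 34.1 ± 5.32 in P0-NPCs. P0-NPCs were the only group in which Mycn exceeded Myc, by 1.07 ± 0.06 (SD) in log2 level.

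**Figure D4:**
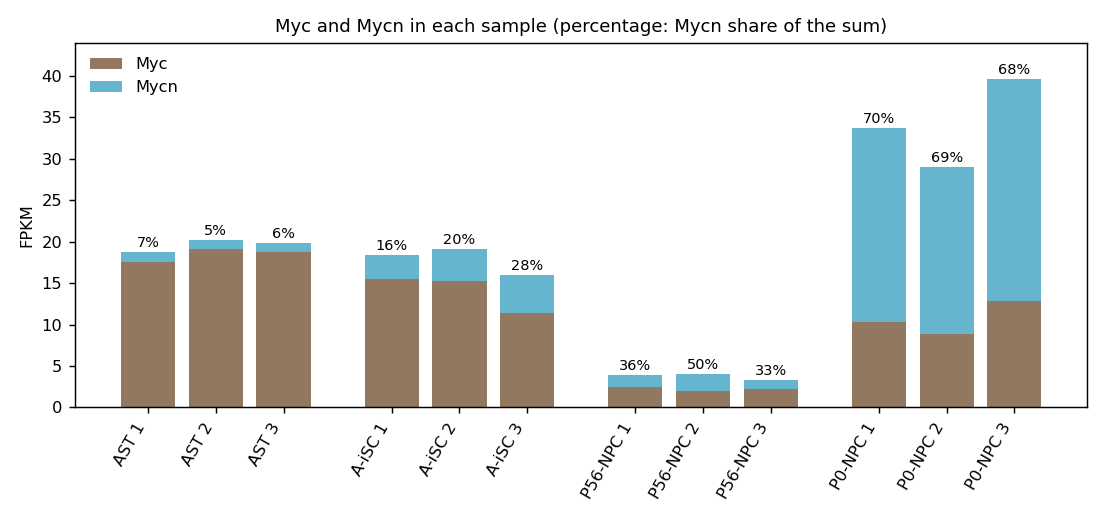
Myc and Mycn in each of the 12 samples (y axis, FPKM; bars stacked, Myc below and Mycn above; numbers, Mycn as a percentage of the sum). The sum was lowest in P56-NPCs, at 3.34 to 4.02 FPKM, and the Mycn share highest in P0-NPCs.

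The comparisons can be read against the share of all genes that limma called. Between A-iSCs and ASTs, 3 of the 5 factors tested were called, Mycn higher and Klf2 and Klf4 lower, beside 54.8% of all genes tested (25.2% higher and 29.6% lower). There the microglial markers (8 of the 8 that reached 1 FPKM in both groups higher in A-iSCs) and the astrocyte markers (7 of 8) also moved, and their part in the results for single genes and lists was not tested. Between P56-NPCs and ASTs 4 of 5 were called, all lower, beside 78.9% of all genes tested (39.1% higher and 39.8% lower). Between P0-NPCs and ASTs 5 of 5 were called, Mycn higher and the other 4 lower, beside 79.0% of all genes tested (38.1% higher and 40.9% lower). Those comparisons share the ASTs. In the comparisons of P56-NPCs and of P0-NPCs with ASTs, Klf5 passed the filter only through ASTs, which fixed its direction there.

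Against the positive controls, 3 of 5 were called between A-iSCs and P56-NPCs, Myc, Mycn and Klf5, all higher in A-iSCs, beside 61.0% of all genes tested (30.1% higher and 30.9% lower). Between A-iSCs and P0-NPCs 2 of 5 were called, Klf5 higher and Mycn lower, beside 65.1% of all genes tested (31.5% higher and 33.6% lower). In both of these comparisons Klf5 passed the filter only through A-iSCs, which fixed its direction. Between P56-NPCs and P0-NPCs 2 of 4 were called, Myc and Mycn, both lower in P56-NPCs, beside 78.8% of all genes tested (39.7% higher and 39.0% lower). With 4 or 5 factors tested in each comparison, these counts do not set the factors apart from other genes.

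**Figure D5:**
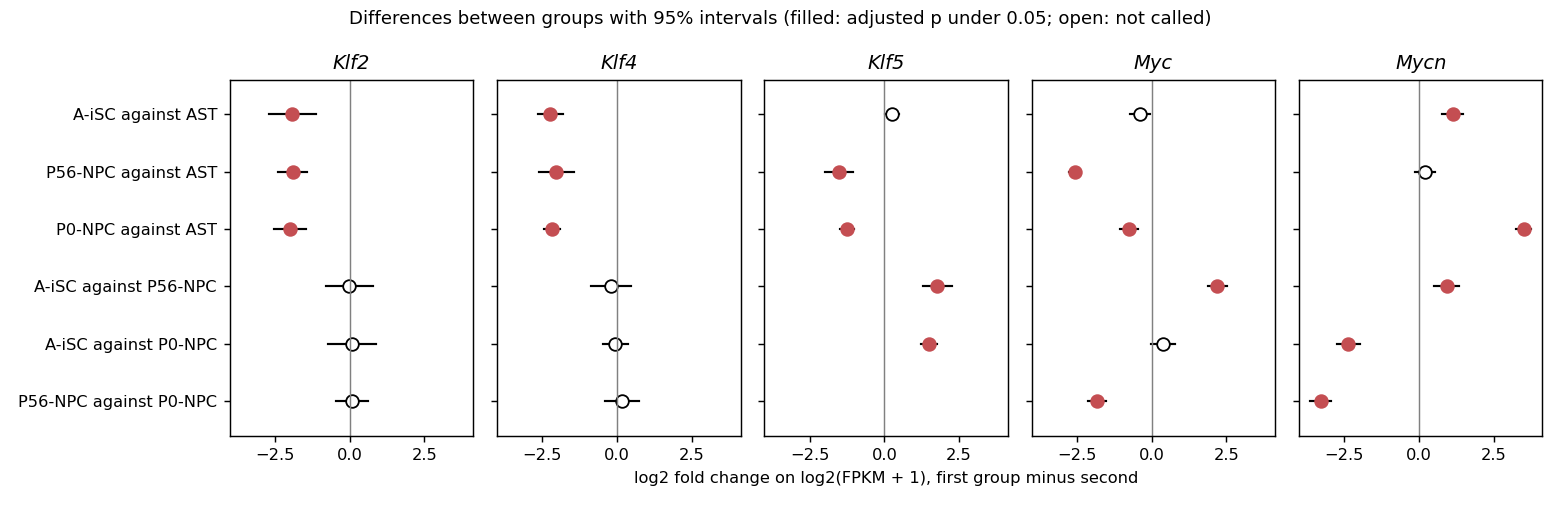
Difference between groups for Klf2, Klf4, Klf5, Myc and Mycn (x axis, log2 fold change on log2(FPKM + 1), first group minus second; rows, the 6 comparisons; bars, 95% intervals; filled points, adjusted p under 0.05; open points, not called; Klf5 lay below the filter between the NPC groups). Klf2 and Klf4 lay left of 0 in the 3 comparisons with ASTs and across 0 in the rest, and Mycn ranged from -3.29 to 3.50.

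Of 24 other genes of the core pluripotency network, 5 or 6 passed the filter in each comparison. Zfp42, Fgf4 and Tcl1, singled out once their values were known as genes typical of pluripotent cells, were listed at 0 in every library. Against ASTs, A-iSCs held 2 of 5 higher and 3 lower. Gdf3, a growth factor of the early embryo, rose by 1.06 ± 0.13 (adjusted p = 0.000514) to 1.38 ± 0.337 FPKM, whereas the T-box factor Tbx3 fell by 0.90 ± 0.12 (adjusted p = 0.000612) and the alkaline phosphatase gene Alpl by 0.67 ± 0.14 (adjusted p = 0.00532). Gdf3 passed the filter only through A-iSCs, and Tbx3 and Alpl only through ASTs, which fixed their direction. The microglial and astrocyte marker sums given above were higher in the same A-iSC libraries, and their part in the Gdf3 result was not tested. Sox2, named here with its values known, rose by 0.62 ± 0.17 (adjusted p = 0.0171) from 135 ± 20.2 to 208 ± 26.9 FPKM. P56-NPCs, against ASTs, held 3 of 6 higher and 2 lower, of which 2 and 1 had their direction fixed by the filter, and with upper-quartile scaling or with library size alone 2 higher and 3 lower. Tdgf1, an embryonic Nodal co-receptor, was 1.02 ± 0.0884 FPKM in P56-NPCs, through which alone it passed the filter, and listed at 0 in ASTs. P0-NPCs, against ASTs, held 1 of 5 higher and 3 lower, the higher one and 1 of the lower fixed. Set against P56-NPCs, A-iSCs held 2 of 6 higher and 4 lower, of which 1 and 3 were fixed. Set against P0-NPCs they held 2 of 5 higher and 2 lower, of which 1 and 2 were fixed. With 2 or 3 genes at 1 FPKM in both groups in each of these comparisons, the counts say little of the list.

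The LIF and STAT3 pathway, which sustains mouse embryonic stem cells and also drives astrocyte genes, had its ligand highest in ASTs. Lif was 16.3 ± 3.72 FPKM in ASTs and fell by 3.04 ± 0.19 (adjusted p = 2.16e-05) in A-iSCs. Its target Socs3 rose by 1.199 ± 0.14 (adjusted p = 0.000374) to 30.2 ± 4.96 FPKM. Against ASTs, A-iSCs held 5 of 10 higher and 2 lower (median 0.28 beside -0.06 over all genes), and without AST replicate 2 there were 1 higher and 2 lower. Among the higher, 1 had its direction fixed by the filter. P56-NPCs, against ASTs, held 3 of 10 higher and 5 lower (median -0.25 beside -0.03 over all genes), and P0-NPCs 3 of 10 higher and 6 lower (median -0.54 beside -0.07 over all genes), but with library size alone 4 higher and 4 lower, median -0.27. In each of these comparisons 1 of the higher and 2 of the lower genes were fixed. Set against P56-NPCs, A-iSCs held 5 of 10 higher, 1 of them fixed, and 2 lower (median 0.47 beside 0.03 over all genes), but with library size alone 7 higher and 2 lower, median 0.75. Set against P0-NPCs they held 6 of 10 higher, 2 of them fixed, and 2 lower (median 0.80 beside -0.02 over all genes).

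Known Myc target genes of ribosome making, nucleotide supply and the cell cycle were mostly lower in A-iSCs than in ASTs. There were 0 of 24 higher and 21 lower (median -0.82 beside -0.06 over all genes). Among them the cyclin Ccnd2 fell by 3.24 ± 0.20 (adjusted p = 1.93e-05), the helicase subunit Mcm5 by 1.68 ± 0.15 (adjusted p = 8.26e-05), the chaperone Hspd1 by 1.48 ± 0.18 (adjusted p = 0.00049) and Mcm4 by 1.31 ± 0.17 (adjusted p = 0.000516). P56-NPCs, where Myc was lowest, held, against ASTs, 0 of 24 higher and 24 lower (median -1.51 beside -0.03 over all genes), and P0-NPCs 1 of 24 higher and 20 lower (median -0.60 beside -0.07 over all genes). With P56-NPCs as the reference, A-iSCs held 14 of 24 higher and 0 lower (median 0.37 beside 0.03 over all genes), but with library size alone 23 higher and 0 lower, median 0.89. Set against P0-NPCs, they held 1 of 24 higher and 8 lower (median -0.30 beside -0.02 over all genes), with library size alone 1 higher and 12 lower, and without A-iSC replicate 3 there were 2 higher and 14 lower. All 24 reached 1 FPKM in both groups of every comparison. The cycling markers given above were likewise highest in ASTs and lowest in P56-NPCs, and their part was not tested.

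Within the Myc and Max network, A-iSCs held, against ASTs, 5 of 15 higher and 2 lower (median 0.26 beside -0.06 over all genes), with upper-quartile scaling 3 higher and 3 lower, and with library size alone 8 higher and 2 lower. Mxi1, a Max partner that opposes Myc, rose by 2.03 ± 0.10 (adjusted p = 8.66e-06) to 16.2 ± 0.278 FPKM, and Mxd3, of the same family, fell by 1.29 ± 0.15 (adjusted p = 0.00037). Mycl, a further Myc paralog, was 1.08 ± 0.207 FPKM in ASTs, 1.499 ± 0.447 in A-iSCs, 10.1 ± 0.844 in P56-NPCs and 50.3 ± 2.93 in P0-NPCs. It exceeded ASTs by 2.42 ± 0.10 (adjusted p = 7.36e-07) in P56-NPCs and by 4.63 ± 0.10 (adjusted p = 2.13e-08) in P0-NPCs. P56-NPCs, against ASTs, held 6 of 15 higher and 4 lower (median 0.08 beside -0.03 over all genes), but with upper-quartile scaling 5 higher and 4 lower, median -0.06 and with library size alone 5 higher and 8 lower, median -0.21, and P0-NPCs 11 of 14 higher and 3 lower (median 0.78 beside -0.07 over all genes), or 11 and 1 with library size alone. With P56-NPCs as the reference, A-iSCs held 4 of 15 higher and 3 lower (median 0.22 beside 0.03 over all genes), but with library size alone 9 higher and 1 lower, median 0.62, and set against P0-NPCs 4 of 15 higher and 9 lower (median -0.50 beside -0.02 over all genes). At most 2 genes of this list in any comparison had their direction fixed by the filter.

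Among other members of the Kruppel-like family, A-iSCs held, against ASTs, 4 of 10 higher and 4 lower (median 0.35 beside -0.06 over all genes). Klf15, a glucocorticoid target, rose by 2.02 ± 0.14 (adjusted p = 3.37e-05), and Klf6 fell by 1.18 ± 0.14 (adjusted p = 0.000336). Klf15 was 1.28 ± 0.229 FPKM in ASTs, 8.25 ± 1.404 in A-iSCs and 34.4 ± 4.45 in P56-NPCs, and Klf6 was 52.7 ± 3.23 FPKM in ASTs and 22.8 ± 3.37 in A-iSCs. P56-NPCs, against ASTs, held 5 of 10 higher and 4 lower (median 0.21 beside -0.03 over all genes), but with library size alone 4 higher and 4 lower, median -0.04, and P0-NPCs 7 of 11 higher and 4 lower (median 1.36 beside -0.07 over all genes). With P56-NPCs as the reference, A-iSCs held 3 of 10 higher and 5 lower (median -0.29 beside 0.03 over all genes), but with library size alone 5 higher and 4 lower, median 0.20, and set against P0-NPCs 2 of 11 higher and 6 lower (median -0.55 beside -0.02 over all genes). The filter fixed the direction of 2 of the 7 higher in P0-NPCs than in ASTs and of at most 1 gene in each other comparison.

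Of the other POU factors, the family of Pou5f1, A-iSCs held, against ASTs, 5 of 6 higher, 2 of them fixed in direction by the filter, and 0 lower. Pou2f2 rose by 1.59 ± 0.18 (adjusted p = 0.00028) in A-iSCs, and Pou3f2, a neural factor also known as Brn2, rose by 1.46 ± 0.12 (adjusted p = 6.3e-05) from 3.12 ± 0.232 to 10.4 ± 1.29 FPKM. Pou3f1 was 0.3205 ± 0.1498 FPKM in A-iSCs, and A-iSCs minus P56-NPCs gave -2.51 ± 0.14 (adjusted p = 8.51e-06) for it. Pou2f2 and Pou3f1 passed the filter in these comparisons only through A-iSCs and P56-NPCs respectively, where they were high, which fixed their direction. The microglial and astrocyte markers rose between the same libraries, and their part in the POU results was not tested. P56-NPCs, against ASTs, held 7 of 7 higher and 0 lower, and P0-NPCs 6 of 7 higher and 1 lower, and in both comparisons 3 of the higher were fixed. With P56-NPCs as the reference, A-iSCs held 2 of 7 higher and 2 lower, 1 of the lower fixed, but with library size alone 3 higher and 1 lower, and set against P0-NPCs 3 of 7 higher and 4 lower, 1 of the lower fixed.

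The patterns most like each factor were sought among 16567 genes, taking log2(FPKM + 1) over the 12 samples, each gene centred on its own mean, and ranking genes by the root mean square of their differences from the factor. The nearest to Klf2 were Klf4 (0.30), Mthfd2 (0.32) and Rps2-ps13 (0.33). Klf4 was nearest to Jaml (0.25) and Tchh (0.26), and Klf5 to Gm20559 (0.20), Il1r1 (0.21) and Pgd (0.22). Myc was nearest to Aprt (0.20), Tcf19 (0.21) and Klf10 (0.24), and Mycn to Stk32b (0.22), Sox4 (0.26) and Mex3a (0.27). These are descriptions of 12 profiles that share libraries and groups, and carry no test.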

How the data were processed

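RNA-seq values of 12 samples, 3 in each of 4 groups, were used as deposited: the authors gave FPKM per gene, with gene positions that match GRCm38 (54985 of the 55240 identifiers shared with GENCODE M21 have the same position). The submitters' notes name Bowtie 0.12.2 and the build mm8, which differs from those positions. How each tool was used and why some widely used genes are at 0 are not given in the sources used here. All columns of sample values were used (0 left out), and samples were grouped by their labels.

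Whole fragments were recovered from the FPKM steps (100% of values whole within 0.01), which gave 17077780 to 24452419 fragments per library. Genes with a mean of at least 1 FPKM in 1 of the groups compared were tested on log2(FPKM + 1), with the FPKM as deposited, by limma 3.58.1 with a trend in R 4.3.3 on the 6 samples of each comparison, with Benjamini-Hochberg adjustment over all genes tested and a threshold of 0.05. Intervals for pooled fragments are exact at 95%. Python 3.11.15 was used for tables (pandas 2.3.3 with numpy 2.4.6), intervals (scipy 1.17.1) and plots (matplotlib 3.10.9). The steps were tested on simulated data.

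The 9 genes and all gene lists were chosen with earlier results of these data known. Named genes were the 9 factors, the 3 genes nearest in pattern to each expressed factor, and up to 4 genes per list and comparison with the largest absolute change, unless stated, and some of these are not reported here. Of the Myc and Max list, 15 of 16 names were in the table. Promoters and let-7a are from RefSeq (GRCm38.p6, 7 of the 9 factors matched). Alternatives were 2 other scalings, a pseudocount of 0.1, no filter, a minimum of 5 FPKM, all 4 groups in 1 model, limma-voom on fragments, a replicate block and leaving out each sample.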

Additional observations from a re-analysis of the deposited data

How the results depend on the processing

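Of 427 alternative values for single factors, 401 kept their direction and their side of the threshold, 16 changed sign and 10 became called. All sign changes were in Klf2 or Klf4 where no difference was called. Klf2 between A-iSCs and P56-NPCs was 0.00707 with upper-quartile scaling and 0.48 with library size alone, and Klf4 was 0.26 with library size alone. Between P56-NPCs and P0-NPCs library size alone gave -0.48 for Klf2 and -0.37 for Klf4. On leaving out each sample in turn, Klf2 ranged from -0.27 to 0.37 and Klf4 from -0.49 to 0.0388 between A-iSCs and P56-NPCs. Between P56-NPCs and P0-NPCs the ranges were -0.16 to 0.25 for Klf2 and -0.0920 to 0.44 for Klf4, and for A-iSCs against P0-NPCs they were -0.19 to 0.45 for Klf2 and -0.16 to 0.14 for Klf4. Over genes with a mean of at least 5 FPKM, where fewer genes are tested, 4965, 7757, 7544, 5921, 6129 and 7716 genes were called, against 7715, 11956, 11859, 9175, 9876 and 12126, in A-iSCs and ASTs, P56-NPCs and ASTs, P0-NPCs and ASTs, A-iSCs and P56-NPCs, A-iSCs and P0-NPCs, and P56-NPCs and P0-NPCs. The factors tested differ between settings, so the next counts are not directly comparable with the main test. For A-iSCs against P56-NPCs, 5 factors were called with no filter, 5 by limma-voom with at least 10 fragments and 1 at 5 FPKM. A-iSCs against P0-NPCs gave 1 at 5 FPKM, and P56-NPCs against P0-NPCs gave 4 by limma-voom. Both limma-voom counts include Nanog and Lin28b, absent from the main test, and stand beside 50.3% and 64.8% of all genes called. At 5 FPKM, Klf5 (mean 3.76 FPKM in A-iSCs) left both comparisons and Mycn (3.75) the first. The share of all genes called with no filter is not given here. A floor of 10 fragments in place of 3 left 10 of 18 library values of the low factors detected. Library size alone moved the share of calls that were higher from 46.0 to 60.4% (A-iSCs and ASTs), from 49.5 to 37.7% (P56-NPCs and ASTs), from 48.2 to 59.4% (P0-NPCs and ASTs), from 49.4 to 74.5% (A-iSCs and P56-NPCs) and from 50.4 to 26.7% (P56-NPCs and P0-NPCs). The median log2 change of all genes lay between -0.53 and 0.49 with library size alone, against -0.07 to 0.03 with the values as deposited. Where no value shows it, the cause was not tested.

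Same-numbered samples did not deviate together in every pair (correlations of -0.378, 0.335 and 0.427 for A-iSCs and ASTs), so the samples share only a number. With the replicate number as a block, 7944, 11587, 11654, 8435, 9406 and 12076 genes were called in the same order, and the factors called numbered 3, 4, 5, 3, 2 and 2, as without it. For Pou5f1 and Lin28a no library passed 3 fragments, and whether depth or the counting of this table sets that limit was not tested.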
